A study of Mus musculus with 4 samples.

Results

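Tumour necrosis factor (Tnf), members of the NF-kB family of transcription factors and genes that NF-kB is known to switch on or be held back by were followed in skin of mice, sampled 48 h after photodynamic treatment. The 10 genes were Tnf, Rel, Rela, Relb, Nfkb1, Nfkb2, Nfkbia, Nfkbiz, Tnfaip3 and Icam1, taken with every probe that their RefSeq accession matched on the array. Of these, 9 were matched, through 10 probes, out of 16862 genes with a usable probe, and Nfkb1 was matched to none. The group was selected on measured values: Tnf, Rel and Icam1 were among the lowest genes of the treated tail relative to its control. The tail values therefore describe the choice and are not evidence for it.

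Tnf is a cytokine that keratinocytes, macrophages, mast cells and T cells can release. It binds receptors that switch on the IkB kinases, which mark the inhibitor IkB-alpha (Nfkbia) for destruction and free dimers of Rel proteins to enter the nucleus. NF-kB then switches on genes that include its own inhibitors Nfkbia and Tnfaip3, so that the signal is shut off again, and adhesion molecules such as Icam1, by which leukocytes leave the blood.

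The treatment makes reactive oxygen species in the skin: methyl aminolevulinate cream, from which cells build the light-absorbing protoporphyrin IX, was left on for 2.5 h in the dark before red light of 636 nm was given. The tail received 10 J/cm2, while the back, which had been shaved, received 2.5 J/cm2. The 4 groups were tail skin without treatment, treated tail skin, back skin without treatment and treated back skin, with 3 animals a group by the design. Strain, sex and age are not given in the labels used here, which call the control skin untreated. Each group was read on 1 single-colour Agilent array, and whether its RNA was a pool of the 3 animals is not given. There are thus no replicates, no difference was tested or has a replicate check, and array and group cannot be told apart, nor can skin site and light dose. The tail samples are called skin in the sample names and epidermis in the extraction protocol.

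The arrays differed in brightness. The signal at the 75th percentile came to 7261 on the tail control, 909 on the treated tail, 1860.4 on the back control and 1204 on the treated back, and 1668, 330, 666 and 334 of the 16862 genes were saturated in that order. Levels below are therefore log2 values of the signal over the array's own 75th percentile, and a difference of 2-fold or more is called higher or lower. Where 1 of the 2 arrays compared was saturated, or its spot not well above background, the gene has at most a bound, written "at least". Where the bound left the direction open, as for Nfkbia in the tail, the gene has no value. A gene saturated on the control array alone could therefore enter counts and medians only with a lower level after treatment, never as higher. The same held for a gene not well above background on the treated array alone. In the mirror cases a gene could enter only as higher. The error beside a difference is the scanner's error for single spots, which covers the reading of a spot and not the spread between animals.

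Markers of basal keratinocytes (6 of 6 genes) and of suprabasal keratinocytes (4 of the 5 listed were on the array) were well above background on all 4 arrays. Markers of leukocytes in general (Ptprc, Coro1a, Laptm5 and Cd52) were well above background on all arrays too, with summed levels of 0.608 in the tail control and 0.687 in the treated tail, against 2.52 and 2.41 in the back control and treated back, as multiples of each array's 75th percentile. In bulk tissue, fewer cells of a type and less RNA per cell cannot be told apart.

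Tnf, Rel, Tnfaip3 and Icam1 had the lowest treated minus control values of the group in the tail (Tnfaip3 as a bound). Their promoters are shown to let a reader see which hold a match to the NF-kB consensus given below close to the start. Each line is the 250 bases before the RefSeq start on build GRCm38.p6, 5′ to 3′ on the gene's strand, at chr17:35202008-35202257 (minus strand) for Tnf, chr11:23770970-23771219 (minus strand) for Rel, chr10:19015411-19015660 (minus strand) for Tnfaip3 and chr9:21015690-21015939 (plus strand) for Icam1. Capitals mark matches to the NF-kB consensus GGGRNNYYCC on either strand, where R is A or G, Y is C or T and N is any base.
Tnf: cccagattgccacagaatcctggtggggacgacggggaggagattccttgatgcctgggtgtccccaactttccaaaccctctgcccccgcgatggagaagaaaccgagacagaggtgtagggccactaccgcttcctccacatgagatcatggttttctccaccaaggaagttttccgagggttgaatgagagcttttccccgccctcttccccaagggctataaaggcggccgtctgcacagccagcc
Rel: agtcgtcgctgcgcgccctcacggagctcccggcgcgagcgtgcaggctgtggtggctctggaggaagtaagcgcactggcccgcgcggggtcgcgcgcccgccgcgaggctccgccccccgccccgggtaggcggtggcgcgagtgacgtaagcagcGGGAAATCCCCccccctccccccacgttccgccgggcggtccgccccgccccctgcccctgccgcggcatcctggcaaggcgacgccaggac
Tnfaip3: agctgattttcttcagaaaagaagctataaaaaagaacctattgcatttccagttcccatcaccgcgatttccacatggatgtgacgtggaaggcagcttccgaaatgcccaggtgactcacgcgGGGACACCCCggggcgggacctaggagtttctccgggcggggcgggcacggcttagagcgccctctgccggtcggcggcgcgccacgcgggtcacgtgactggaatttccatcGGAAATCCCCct
Icam1: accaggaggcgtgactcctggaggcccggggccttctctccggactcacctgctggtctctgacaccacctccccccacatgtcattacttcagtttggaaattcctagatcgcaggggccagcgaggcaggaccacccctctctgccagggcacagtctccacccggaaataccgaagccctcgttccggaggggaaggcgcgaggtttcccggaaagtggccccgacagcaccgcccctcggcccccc

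Rel had 2 overlapping matches, beginning 92 and 91 bases before the start, and Tnfaip3 had 2, beginning 125 and 12 bases before it. The window of the other listed Tnfaip3 start, not shown, had no match. Neither Tnf nor Icam1 had a match in this window. The consensus was present in 7.25% of the 32851 windows of this length in the table, searched on both strands. Of the 10 windows listed for 7 of the genes, some with several starts, 6 held the consensus, among them the window of Nfkbia (29 bases before the start) and all 3 of Nfkb2. A match describes letters and shows no binding.

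Tnf, the ligand of the pathway, was far lower on the treated tail array than on any other. Its probe was spotted 10 times on each array. The spots read 5387 to 5918 (median 5576) on the tail control, 20.1 to 34.2 (median 26.3) on the treated tail, 962 to 1050.0 (median 1020.0) on the back control and 1110.2 to 1174 (median 1152) on the treated back. The 10 treated tail spots thus lay below every spot of the other arrays, and they varied more among themselves, with an SD of 0.27 on the log2 scale against 0.04, 0.04 and 0.03 elsewhere.

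**Figure D1:**
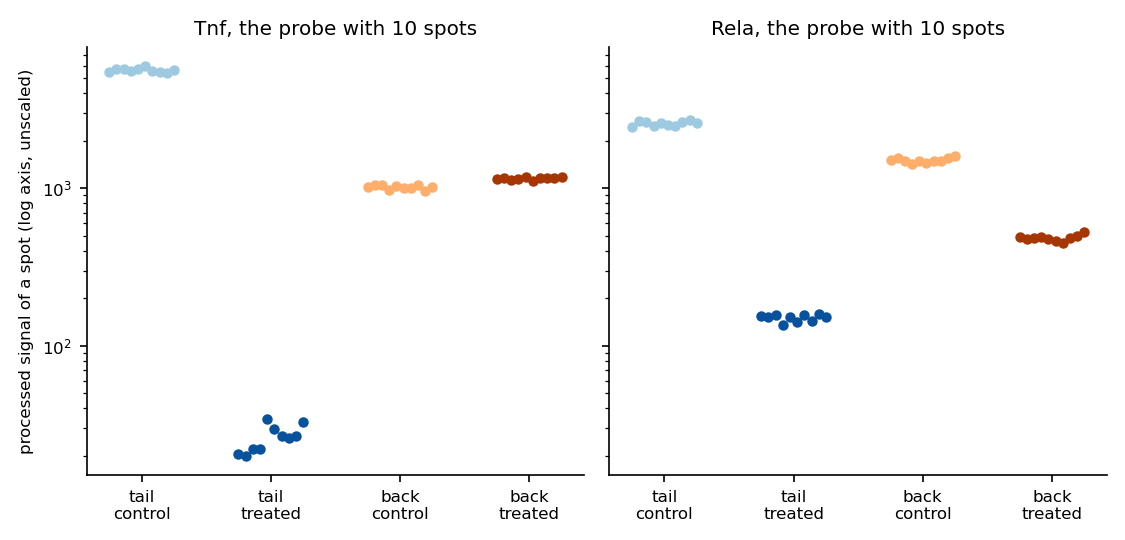
Processed signal (log axis, not scaled between arrays) of each of the 10 spots of the Tnf probe and of the Rela probe that was spotted 10 times, on the 4 arrays; each point is 1 spot. The treated tail spots of Tnf sit at 20.1 to 34.2, below all spots of the other arrays, while those of the back control (962 to 1050.0) and treated back (1110.2 to 1174) lie close together without overlapping.

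All 10 spots were marked well above background on each array, although on the treated tail their raw pixel intensity had a median of 57.8 over a local background of 23.5. As log2 levels, Tnf stood at -0.38 in the tail control, -5.14 in the treated tail, -0.88 in the back control and -0.07 in the treated back. Treated minus control tail was -4.77 ± 0.24 (scanner error), 27.2-fold lower, the lowest of the 12485 genes measured on both tail arrays. In the back, Tnf was 0.81 ± 0.20 higher after treatment, or 1.75-fold, which is under the 2-fold limit (0.28 with spike-in scaling). The treated back and the tail control, neighbours in the order of levels, differed by 0.31, less than 2 scanner errors. The back response exceeded the tail response by 5.58 ± 0.32.

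From tail control to treated tail, the summed level of macrophage markers went from 1.10 to 1.52, of T cell markers from 0.679 to 1.66 and of mast cell markers from 0.167 to 0.268, with Mrc1 dim on both arrays and Cpa3 on the treated one. The marker medians of treated minus control were 0.34, 0.94 and 0.93, and -1.78, -1.18 and -0.98 with spike-in scaling, so their direction depended on the scaling. Of the basal keratinocyte markers, 1 of 6 had a value in the tail, at -2.05, the others being saturated on the tail control. Their part in the Tnf value was not tested.

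**Figure D2:**
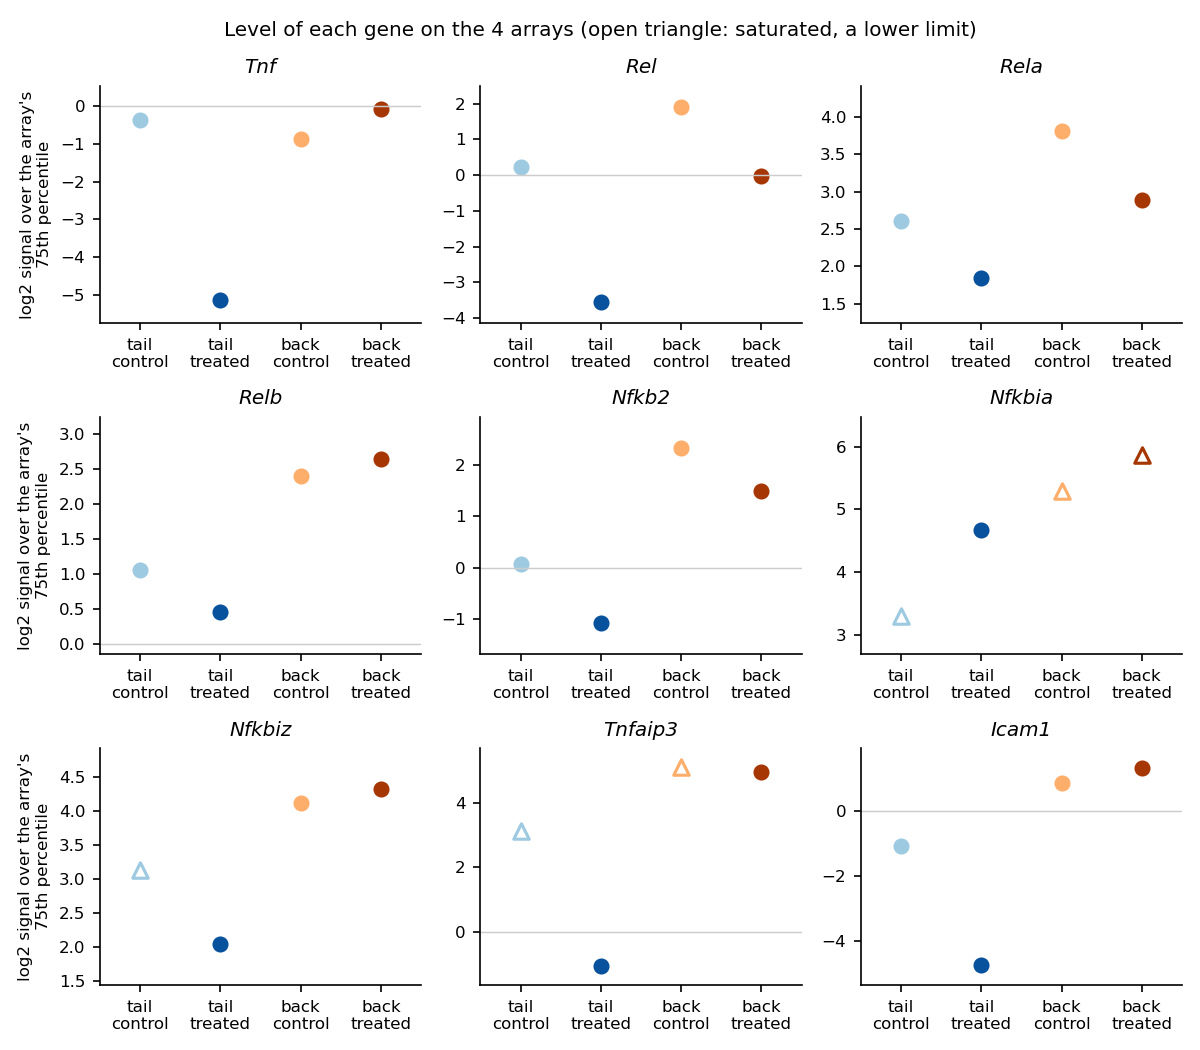
Level of each of the 9 genes on the 4 arrays, as log2 of the signal over the array's 75th percentile, 1 point per array; open triangles are saturated spots, where the level is a lower limit. Every gene except Nfkbia had its lowest point on the treated tail array, at -5.14 for Tnf and -4.75 for Icam1.

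The Rel proteins are the DNA-binding subunits, and they did not differ by like amounts. Rel (c-Rel, prominent in lymphocytes and myeloid cells) read 8424 on the tail control, 78.4 on the treated tail, 6913 on the back control and 1186 on the treated back. These are levels of 0.21 in the tail control, -3.54 in the treated tail, 1.89 in the back control and -0.02 in the treated back. It was lower after treatment in both skins, at -3.75 ± 0.21 in the tail (13.5-fold lower) and -1.92 ± 0.20 in the back (3.77-fold lower), and the back response exceeded the tail response by 1.83 ± 0.29. In the back it was the only 1 of 8 genes with a value that was called, at 2-fold and at 3-fold, where 12.6% of all genes with a value were lower and 26.2% were called either way. T cell markers (4 of 6 on the array, none dim) summed to 3.31 in the back control and 0.288 in the treated back, and Langerhans and dendritic cell markers (6 of 6) to 23.0 and 9.04. Macrophage markers went the other way there, from 1.76 to 3.45, as did neutrophil markers, from 42.7 to 109, with saturated spots among them. In the tail pair T cell markers summed to 0.679 and 1.66, and Langerhans and dendritic cell markers to 3.66 and 2.64. The part of these cells in the Rel value was not tested.

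Rela (p65, the subunit with the strong activation domain) was read by 2 probes that disagree about the limit but not the direction. The brighter probe stood at 2.61, 1.84, 3.82 and 2.88 in the order tail control, treated tail, back control and treated back, so that treatment differed by -0.77 ± 0.20 in the tail and -0.93 ± 0.20 in the back. The dimmer probe, with 10 spots of median 2580.0, 152, 1491 and 484, differed by -1.10 in the tail and -1.01 in the back. In the tail the brighter probe passed 2-fold after cyclic loess (-1.49), quantile normalization, normexp on all spots (-1.12) and spike-in scaling (-2.89).

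Relb and Nfkb2 encode the partners of the non-canonical branch, which is driven by lymphotoxin and related ligands. Relb had levels of 1.06, 0.46, 2.40 and 2.64 in the same order, a tail difference of -0.60 ± 0.20 and a back difference of 0.24 ± 0.20 (-0.29 with spike-in scaling), both under 2-fold. Nfkb2 (p100, processed to p52) had levels of 0.07, -1.08, 2.33 and 1.49, which put it 2.22-fold lower in the tail, at -1.15 ± 0.20, and at -0.85 ± 0.20 in the back. The tail value was under 2-fold with normexp, at -0.44 on all spots and -0.98 without the spots of marked background. Treated and control back skin lay closer together for Relb than 2 scanner errors, while for Nfkb2 all 4 levels were further apart than that.

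Saturation limits what can be said of the inhibitors. Tnfaip3 (A20, the ubiquitin-editing enzyme that ends Tnf signalling) was saturated on both control arrays, with signals of 63599.8 and 64393, and read 437 on the treated tail and 38054 on the treated back. It was at least 18.2-fold lower in the treated tail, while the bound in the back was -0.13. Nfkbiz (IkB-zeta, a nuclear coactivator of a subset of NF-kB genes) read 63658 on the saturated tail control, 3748 on the treated tail, 32285 on the back control and 24143 on the treated back. That made it at least 2.13-fold lower in the treated tail and 0.21 ± 0.20 higher in the treated back (-0.32 with spike-in scaling). Nfkbia was saturated on all arrays but the treated tail, where it read 23137, and had no value in any comparison. Its scaled level was 4.67 in the treated tail and at least 3.29 in the saturated tail control, so their order is not known.

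Icam1, the adhesion molecule that leukocyte integrins bind, was chosen, like Tnf, for its low tail value. Its single probe read 3416 on the tail control, 33.7 on the treated tail, 3355 on the back control and 3007.5 on the treated back, and only the treated tail stands apart in raw signal. As levels these were -1.09, -4.75, 0.85 and 1.32. Treated minus control was -3.67 ± 0.23 in the tail, 12.7-fold lower, and 0.47 ± 0.20 in the back, 1.39-fold higher (-0.06 with spike-in scaling). On the treated tail the raw pixel intensity was 60.5 over a local background of 23.5. Of the markers of endothelium, a main site of Icam1, 4 of the 4 with a value were higher in the treated tail, with a median of 1.81, but -0.40 with spike-in scaling. Their summed level went from 0.0880 to 0.339, with Tek dim on both tail arrays and Kdr on the treated one. The part of cell makeup in the Icam1 value was not tested.

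**Figure D3:**
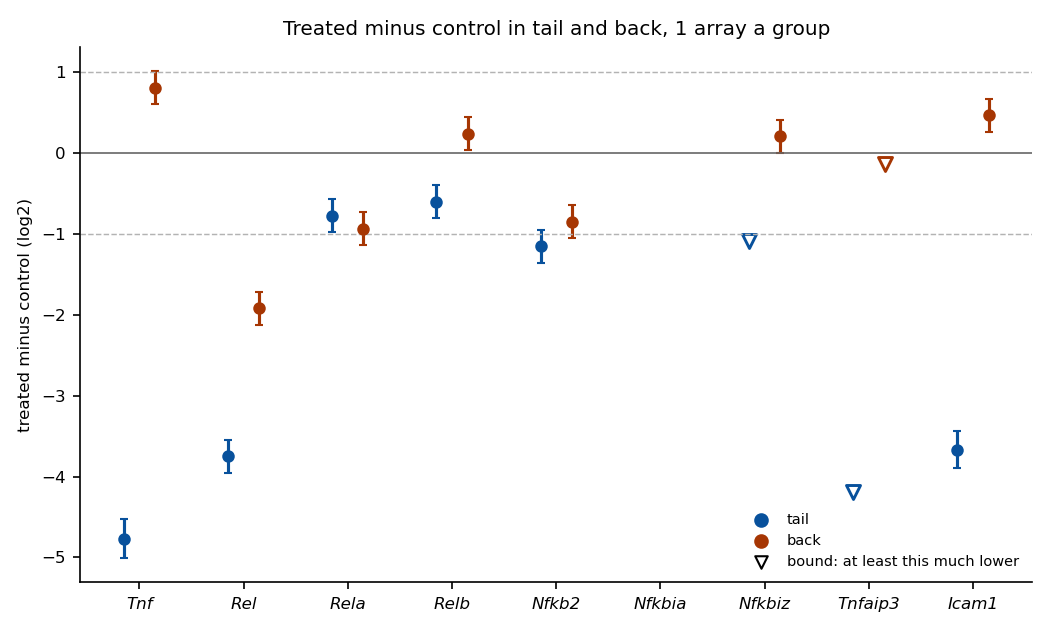
Difference of treated minus control skin (log2) for each gene in tail (blue) and back (brown), with the scanner error of 1 spot as the bar; open triangles are bounds, and dashed lines mark 2-fold. In the tail 6 of 8 genes lie at or past 2-fold lower, while in the back Rel alone does.

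Over the 9 genes, 8 had a value in the tail, of which 6 were lower, 0 higher and 2 within 2-fold, with a median of -2.41. Among all 12858 genes with a value in the tail, 6.55% were lower, 27.2% higher and 33.7% either, and the median was 0.33. This comparison is the one that chose Tnf, Rel and Icam1, so nothing is read from the count. In the back, 8 had a value, 1 was lower and 0 higher, with a median of 0.04. The corresponding figures for all 13461 genes there were 12.6% lower, 13.6% higher and a median of -0.01. The scaling set the balance of all genes in the tail: 80.6% of called genes were higher, 54.6% after cyclic loess, which evens out differences that depend on brightness, 59.0% after quantile normalization, 91.6% with normexp on all spots and 1.19% when the arrays were scaled to the spiked-in control RNA. In the back 51.8% of called genes were higher, and 17.3% with spike-in scaling. Spike-in scaling used the median signal of 6 control probes. It was 1943 on the tail control, 1053 on the treated tail, 1027 on the back control and 960 on the treated back. Under that scaling the median of all genes was -1.67 in the tail and -0.52 in the back. Of all genes with a value, 72.7% were then lower and 0.877% higher in the tail, and 27.5% and 5.76% in the back. Of the 9 genes, 7 were lower in the tail after cyclic loess, 8 with spike-in scaling, and 0 were higher with either. After cyclic loess 12.0% of all genes were lower in the tail and 14.4% higher.

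The untreated skins differed for most of these genes as well. On the back control array, Nfkb2 was 2.26 ± 0.20 higher than on the tail control, Icam1 1.94 ± 0.20, Rel 1.68 ± 0.20, Relb 1.34 ± 0.20 and Rela 1.21 ± 0.20. Tnf differed by -0.50 ± 0.20, and the saturated inhibitors had no value. That is 5 higher of 6 with a value, where 27.4% of all genes were higher, 17.2% lower and 44.6% either. After cyclic loess 3 of them were, where 19.4% of all genes were, Rela standing at 0.51 and Relb at 0.95. This pair shares an array with each response, so it is given beside them and not as separate evidence. The back response exceeded the tail response by 2-fold or more for Tnf, Icam1, Rel and Nfkbiz (at least 1.30), 4 of 7 genes with a value, where 15.3% of all genes were higher, 30.4% lower and 45.7% either. This difference contains the tail response that chose Tnf, Rel and Icam1, so nothing is read from this count either.

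**Figure D4:**
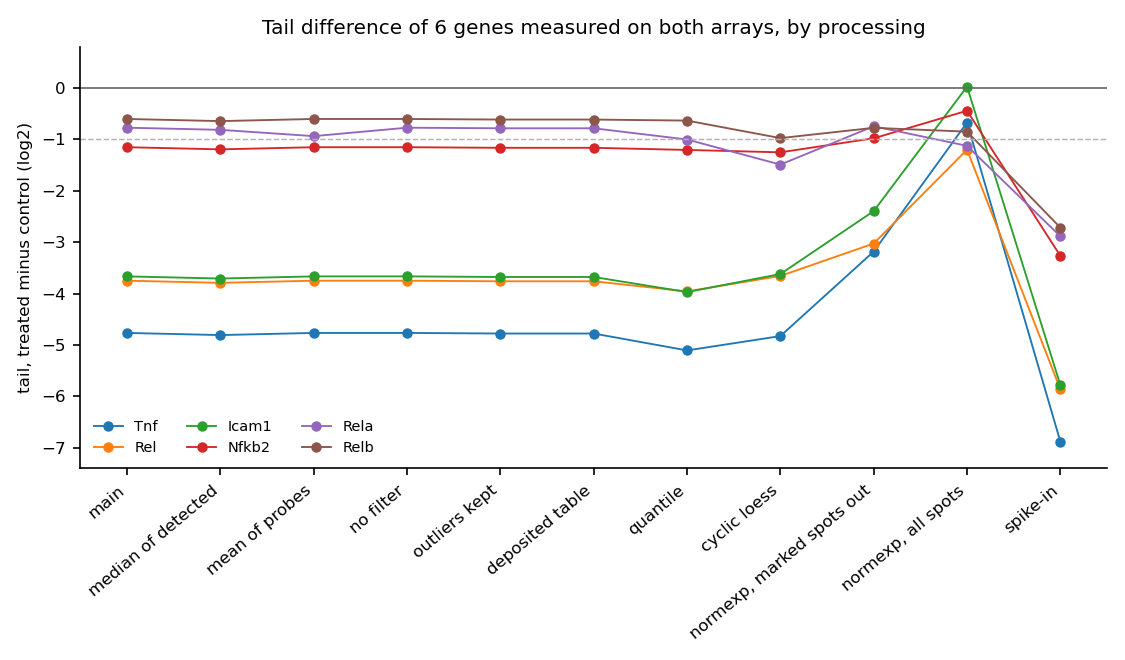
Treated minus control tail (log2) for the 6 genes measured on both tail arrays, under the main setting and 10 others; 1 point per gene and setting, with dashes at 2-fold lower. Tnf lies between -6.88 and -0.67, and of the settings plotted, normexp fitted on all spots puts Icam1 at 0.028, above 0.

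The tail values of the dim genes depended on background correction. With the normexp method, which models each array's background before scaling, Tnf stood at -0.67, Rel at -1.20 and Icam1 at 0.028. On the treated tail array 3 of 43379 spots had a local background above 1000, up to 36501, while the other arrays had none above 54.0. With all spots the corrected 25th percentile of that array was 722, and without the 240 spots marked there for an irregular background it was 71.5. The latter fit gave Tnf -3.18, Rel -3.03 and Icam1 -2.40. It adds a constant of 50 to every spot, which shrinks differences of dim spots by construction.

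The genes with patterns closest to Tnf, Rel and Icam1 were sought among 11281 genes measured on all 4 arrays, by the distance between log2 levels after each gene was centred on its mean. For Tnf they were the natriuretic peptide gene Nppb at a distance of 0.22, the semaphorin Sema3c at 1.04 and the transcription factor Irf1 at 1.20. For Rel they were the growth factor binding protein Igfbp3 at 0.54, the AP-1 subunit Fosl1 at 0.57 and the prostaglandin receptor Ptger4 at 0.59. For Icam1 they were the epithelial transcription factor Elf3 at 0.20, Ets1 at 0.45 and the interferon-inducible Ifi204 at 0.97. With 4 arrays these are descriptions of shape only.

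Upstream of NF-kB, few genes of the receptor complex passed 2-fold in the tail, except with spike-in scaling, where 22 of 25 were lower and 0 higher. Of all genes, 72.7% were lower and 0.877% higher in the tail under that scaling. Tnfrsf1a, the main Tnf receptor, was saturated on both controls and had no value in either skin. Tnfrsf1b, the receptor of leukocytes and endothelium, was 1.58 ± 0.20 higher in the treated tail and differed by -0.53 ± 0.21 in the back, although with spike-in scaling the tail value was -0.54 and with the mean of its probes it was under 2-fold. Of 24 genes of the receptor complex with a value, in the tail 3 were higher and 2 lower, where 27.2% of all genes were higher and 6.55% lower, and the median was 0.15. Lower were Birc3, a ubiquitin ligase induced by NF-kB, at -1.21 and the caspase inhibitor Xiap at -2.07, or 2.68 under normexp fitted on all spots and under 2-fold without the marked spots. The caspase-8 regulator Cflar was at 1.66 (0.72 after cyclic loess and -0.45 with spike-in scaling).

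In the back, the complex had 7 of 24 genes higher and 2 lower, where 13.6% of all genes were higher and 12.6% lower; the median was 0.50. With spike-in scaling 2 of 25 were higher and 7 lower, where 5.76% and 27.5% of all genes were. The necroptosis effector Mlkl, which perforates the cell membrane, was 3.31 ± 0.21 higher, the adaptor Tradd 1.55 and the kinase partner Tab1 1.46 (0.93 with spike-in scaling). Traf5 was lower at -1.59. The list was not tested. Mlkl ranged from 2.78 to 3.33 over the alternatives.

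The IkB kinase subunits stayed under 2-fold in both skins. With spike-in scaling, however, 9 of 9 kinases were lower in the tail, where 72.7% of all genes were. Chuk (IKK-alpha) was at -0.98 in the tail and -0.16 in the back, Ikbkb (IKK-beta) at -0.43 and 0.64, and the regulatory subunit Ikbkg (NEMO) at -0.70 and -0.26, each with an error of 0.20 or 0.21. Only Ikbke, an inducible relative, was called: -1.12 in the tail and 1.18 in the back. Its tail value was 0.54 under normexp fitted on all spots and -0.84 without the marked spots, and its back value 0.65 with spike-in scaling. Of 8 kinases with a value in the tail 1 was lower and 0 higher, and of 9 in the back 1 was higher and 0 lower. Over all genes 6.55% were lower and 27.2% higher in the tail, and 12.6% and 13.6% in the back.

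Among other inhibitors, 5 of 17 were lower in the tail and 0 higher (median -0.46), where 6.55% of all genes were lower and 27.2% higher. In the back 6 of 19 were lower and 3 higher (median -0.60), where 12.6% and 13.6% of all genes were. With spike-in scaling 18 of 18 were lower in the tail, where 72.7% of all genes were. In the back 12 of 19 were then lower and 0 higher, where 27.5% and 5.76% of all genes were. Lower in the tail were Bcl3, a nuclear IkB protein, at -1.26, the deubiquitinase Cyld at -1.25, Tax1bp1, an A20 adaptor, at -1.20, Tnip1, another A20 partner, at least 3.06-fold lower and Zfp36, which binds and destabilises Tnf mRNA, at least 3.12-fold lower. Cyld turned to 0.40 under normexp fitted on all spots and was under 2-fold without the marked spots and with the mean of its probes, as was Tax1bp1 (-0.82) with the mean of its probes. In the back, the ubiquitin ligase Itch at -1.88 and Pdlim2 at -1.43 were the lowest, and Zfp36l2 at 1.42 and Nfkbil1 at 1.34 the highest. Zfp36l2 was under 2-fold with both normexp fits and at 0.89 with spike-in scaling, Nfkbil1 at 0.81 with spike-in scaling and Pdlim2 at -0.89 after quantile normalization. With quantile normalization 2 inhibitors were lower in the back, where 10.8% of all genes were.

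**Figure D5:**
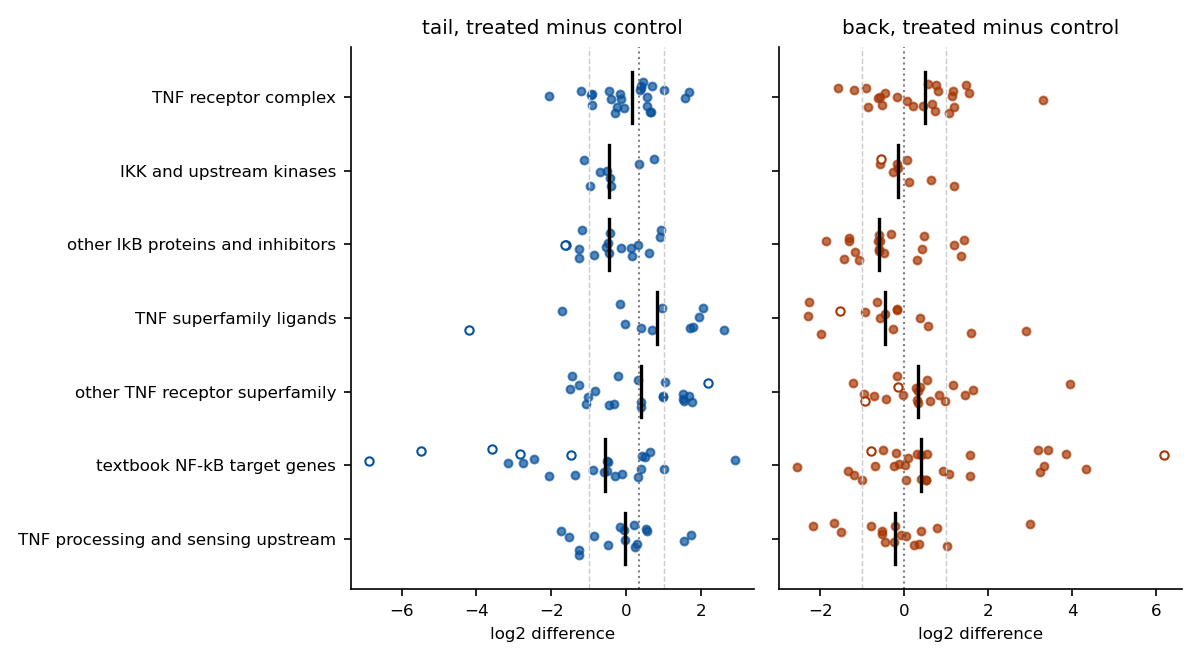
Treated minus control (log2) in tail and back for the genes of 7 pathway lists, 1 point per gene (open points are bounds); black bars are list medians, the dotted line is the median of all genes and dashes mark 2-fold. NF-kB target genes spread from -6.87, a bound for Cxcl10, to 2.91 for C3 in the tail and reach 6.18, a bound for Cxcl5, in the back.

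Other ligands of the family went both ways. In the tail 5 of 12 were higher and 2 lower (median 0.81), where 27.2% of all genes were higher and 6.55% lower. Of those higher, the death ligand Fasl at 2.60 ± 0.35, Tnfsf12 (TWEAK) at 2.05, Cd70 at 1.94 and Tnfsf8 at 1.77 had the largest measured values. With spike-in scaling Fasl was at 0.49, and Tnfsf12, Cd70 and Tnfsf8 were below 0. Under it 8 of 14 ligands were lower, where 72.7% of all genes were. Fasl was at 0.87 with the mean of its probes, and Tnfsf8 at 0.81 after cyclic loess and 0.98 after quantile normalization. Both were near the lowest signals well above background, which were 22.3 on the tail control and 10.3 on the treated tail. On these arrays Fasl read 27.2 and 20.7, and Tnfsf8 31.8 and 13.6. Tnfsf18 (GITR ligand), named after its value was seen, was at least 18.4-fold lower. In the back 2 of 15 were higher and 4 lower (median -0.47), where 13.6% and 12.6% of all genes were, with Tnfsf14 (LIGHT) at 2.90 ± 0.28, Tnfsf13 (APRIL) at -2.29, Tnfsf4 (OX40 ligand) at -2.27 and Fasl at -1.99. Under 2-fold in the back were Fasl with both normexp fits (-0.39 and -0.41) and Tnfsf4 with normexp on all spots (-0.99). With spike-in scaling 7 of 15 ligands were lower there and 2 higher, where 27.5% and 5.76% of all genes were.

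Of the other receptors, 7 of 21 were higher and 5 lower in the tail (median 0.39), where 27.2% and 6.55% of all genes were. After cyclic loess 3 were higher and 6 lower, where 14.4% and 12.0% of all genes were. With spike-in scaling 0 of 22 were higher and 15 lower, where 0.877% and 72.7% of all genes were. The ectodysplasin receptor Edar stood at 1.74, the lymphotoxin receptor Ltbr at 1.66 (0.50 after cyclic loess), Tnfrsf8 at 1.53 (0.63 after cyclic loess) and the BAFF receptor Tnfrsf13c at 1.52, all below 0 with spike-in scaling. In the back 4 of 21 were higher and 1 lower, where 13.6% and 12.6% of all genes were, with the receptor Tnfrsf26 at 3.94 ± 0.26, the T cell costimulators Tnfrsf4 at 1.64 and Tnfrsf18 at 1.45, and the osteoclast receptor Tnfrsf11a at -1.23. Tnfrsf18 was at 0.92 with spike-in scaling, and Tnfrsf11a under 2-fold with normexp on all spots and with the mean of its probes. With spike-in scaling 2 of 22 receptors were higher in the back and 4 lower, where 5.76% and 27.5% of all genes were. The part of T cells, whose markers were lower in the treated back as given above for Rel, was not tested in the receptor and ligand values.

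Textbook NF-kB target genes, a list that holds none of the 10, counted 10 lower and 2 higher among 24 genes with a value in the treated tail, where 6.55% of all genes were lower and 27.2% higher. Their median was -0.56, and that of all genes 0.33. Of the 24, 19 were measured on both arrays, with a median of -0.49 (0.34 for all genes so measured). The other 5 were bounds, each past 2-fold lower, against 373 bounds among all 12858 genes. After cyclic loess 12 of 26 were lower and 1 higher, where 12.0% and 14.4% of all genes were. With spike-in scaling 24 of 29 were lower, where 72.7% of all genes were. Irf1 was at -3.15 ± 0.20, the dendritic cell marker Cd83 at -2.76 ± 0.21 and the alarmin cytokine Il1a at -2.45 ± 0.20, while complement C3 was 2.91 ± 0.20 higher (0.79 with spike-in scaling). Under normexp fitted on all spots Cd83 was at 0.05. Langerhans and dendritic cell markers summed to 3.66 in the tail control and 2.64 in the treated tail, and their part in the Cd83 value was not tested.

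In the treated back, 10 of 30 target genes stood higher and 4 lower, where 13.6% and 12.6% of all genes were. Their median was 0.39 (-0.14 with spike-in scaling), and that of all genes -0.01. The neutrophil chemoattractant Cxcl1 was 4.34 ± 0.20 higher, the interleukin-23 subunit Il23a 3.85 ± 0.22, C3 3.43 ± 0.20 and the acute-phase protein Saa3 3.34 ± 0.22. Neutrophil markers (6 of 7 on the array) summed to 42.7 in the back control and 109 in the treated back, and to 8.62 and 144 in the tail pair, with 1 or 2 of them saturated on every array but the tail control and Csf3r dim on all but the treated back. Their median difference, bounds included, was 2.70 in the back and 3.35 in the tail. Over those measured on both arrays it was -0.16 in the back (3 genes) and 0.47 in the tail (2 genes). Macrophage markers (5 of 7) summed to 1.76 and 3.45 in the back pair and to 1.10 and 1.52 in the tail pair, Mrc1 being dim on both tail arrays. The part of these cells in the target genes was not tested.

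Among genes that process Tnf or sense danger, 2 of 16 were higher and 4 lower in the tail, where 27.2% and 6.55% of all genes were. With spike-in scaling 14 of 18 were lower there and 0 higher, where 72.7% and 0.877% of all genes were. In the back 2 of 17 were higher and 3 lower, where 13.6% and 12.6% of all genes were. With spike-in scaling 1 was higher there and 7 lower, where 5.76% and 27.5% of all genes were. The endotoxin receptor Tlr4 was higher in both, at 1.73 ± 0.21 in the tail (-0.38 with spike-in scaling) and 3.00 ± 0.27 in the back, and Irak3, a brake on that receptor, lower in both, at -1.75 ± 0.20 (-0.81 with normexp on all spots) and -2.17 ± 0.20. In the tail the scaffold Card10 was at -1.54, and in the back Card14 was at -1.67 and Irak2 at -1.52. Tnf shedding by Adam17 and its cofactors was part of this list, in which Rhbdf2 and Litaf had no value in the tail.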

How the data were processed

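Mouse skin RNA (200 ng, Cy3) was read on 4 Agilent arrays, 1 per group, grouped by sample title. Per the file headers, Feature Extraction 10.5.1.1 made the deposited processed signal, a background-corrected spot intensity with no scaling between arrays; the submitters' processing notes name version 10.7. The authors' deposited table is on a log2 scale, centred per probe by steps not stated. Its differences matched those of the processed signal after scaling between arrays, not those of the unscaled signal. The match was within 0.01 for 99.99%, 99.98% and 99.98% of probes in tail, back and untreated pair. For Tnf in the tail, the deposited table and the scaled signal with outlier spots kept both gave -4.78.

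Control spots and outlier spots were left out, spots of a probe were averaged as log2, and each array's 75th percentile was subtracted. Of 41174 probes 24375 (59.2%) matched 1 symbol through RefSeq accessions (GRCm38.p6). The headers give build mm8, so coordinates are printed for RefSeq promoters only. The brightest probe stood for a gene. Genes not well above background, or saturated, on 1 array were given as bounds where the bound fixed the direction of the difference. Where it did not, or where both arrays were affected, they had no value. No p-value is given with 1 array a group, and the number of arrays limits the precision. Besides the 9 genes, those named were up to 4 per list and skin with the largest measured 2-fold difference, bounds where fewer, and fixed receptor and kinase genes. A gene that this rule names is not reported here. The genes and lists were chosen with earlier results of these data known. The code that makes the calls was run on simulated data with scanner error only, which says nothing of the spread between animals. Alternatives were 10 planned and 2 chosen after seeing the data (spike-in scaling, and normexp without spots of marked background); the files hold median and not mean pixel signals, so normexp used medians. Python 3.11.15, R 4.3.3 and limma 3.58.1 were used.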

Additional observations from a re-analysis of the deposited data

Results flagged for a closer look

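Under the main scaling, these genes differed in opposite directions in the treated tail and the treated back. None of these differences was tested, since each group is 1 array. Among the 9 genes, both Tnf and Icam1 lay beyond 2 scanner errors on opposite sides: the back response exceeded the tail response by 5.58 for Tnf (-4.77 in the tail, 0.81 in the back) and by 4.14 for Icam1 (-3.67 and 0.47). Both were chosen for their low tail values, which these differences contain, so the differences are not separate evidence. Among pathway genes past 2-fold both ways, the kinase Ikbke stood 2.30 higher in the back response than in the tail response. The chemokines Cxcl1 and Cxcl2 did so by 6.39 and at least 6.01, and the interleukin-23 subunit Il23a by at least 5.33. The ligands Tnfsf13 and Fasl went the other way, with differences of -3.98 and -4.59, each higher in the treated tail and lower in the treated back. The opposite directions did not hold for Icam1 with spike-in scaling (-0.06 in the back) or normexp on all spots (0.028 in the tail), for Ikbke and Cxcl1 with normexp on all spots (0.54 and 2.51 in the tail), or for Tnfsf13 with spike-in scaling (-0.42 in the tail). With normexp without the marked spots, the tail values were -0.84 for Ikbke, -0.12 for Cxcl1 and -0.45 for Cxcl2, all under 2-fold. Cxcl2 and Il23a were not well above background on the treated tail, at 8.96 and 7.77, so their tail values are bounds. Neither had a tail value with normexp on all spots, nor had Il23a without the marked spots. Ikbke was at 0.65 in the back with spike-in scaling. Fasl was at 0.49 in the tail with that scaling and 0.87 with the mean of its probes, and at -0.39 and -0.41 in the back with the normexp fits. Its signals of 27.2 on the tail control, 20.7 on the treated tail and 18.4 on the treated back were near the lowest well above background.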

How the results depend on the processing

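No paired analysis was possible because each group has 1 array. In the tail 6 of the 9 genes were called, and 3 when both arrays had to read 200 or more, which removes Tnf, Rel and Icam1. In the back 1 was called, and 3 with spike-in scaling, all lower, where 27.5% of all genes were lower. Between untreated skins 5 were called, 3 after cyclic loess, 3 at 3-fold and 2 with spike-in scaling, Nfkb2 higher and Tnf lower. For back minus tail response 4 were called, 2 with normexp on all spots, 1 under the limit of 200 and 7 with spike-in scaling. With spike-in scaling 58.8% of all genes were higher in that comparison. Between untreated skins 8.63% of all genes were then higher and 43.2% lower. Under normexp on all spots Icam1 in the tail turned to 0.028 and Rel in back minus tail response to -0.72. The remaining settings moved these counts by no more than 1.5 times. Spike-in scaling moved the median of all genes in the tail from 0.33 to -1.67. Dim signals in the treated tail (Tnf 25.7, Icam1 33.7, Rel 78.4) and saturation of the inhibitors limit the values as well.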
